A study of Homo sapiens with 9 samples.

Results

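The NOTCH1 receptor gene and 7 genes known as targets or partners of NOTCH signalling (NOTCH3, HES1, HES4, DTX1, NRARP, PTCRA and IGF1R) were examined in chromatin maps of DND-41, an established human line of T-cell acute lymphoblastic leukemia (T-ALL). A peak belonged to a gene when it overlapped the gene or the 25 kb on either side of it by at least 1 bp, with gene ends in hg19 rounded to 1 kb. The 8 windows add up to 866000 bp and held 261 of the 183634 peaks in 5 lists: 22 H3K4me3 peaks, 10 BRG1 peaks, 36 RUNX1 peaks, and for H3K27ac 122 peaks after DMSO and 71 after ACBI. The lists come from CUT&RUN, in which an antibody brings micrococcal nuclease to its target and the released DNA is sequenced. BRG1 (SMARCA4, an ATPase of the SWI/SNF remodeling complexes), RUNX1 (a transcription factor of blood cells) and H3K4me3 (a mark of active promoters) were profiled in DND-41 cells that carried no treatment label. H3K27ac, an acetylation found at active enhancers and promoters, was profiled in DND-41 cells given 100 nM ACBI-1, a compound that causes degradation of the SWI/SNF ATPases and of PBRM1, or DMSO, its solvent; the labels give no exposure time. Each group is 1 library of 1 cell line, so differences are given without replicate error or p-value.

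When a ligand binds a NOTCH receptor, proteases release the receptor's intracellular part, which enters the nucleus and joins the DNA-binding protein RBPJ and a MAML coactivator at target genes. T-ALL cells often carry mutations that activate NOTCH1, and DND-41 is one such line. HES1 and HES4 are among the direct targets, and RBPJ motifs of the HES1 promoter are known to form a pair that faces inward.

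The promoters of HES1 and HES4 are shown because they share that pair of motifs while their peaks differed in these lists, and those of NOTCH1 and IGF1R because BRG1 peaks lay nearest to the gene start there. The table of RefSeq promoters (GRCh38.p14) held 7 of the 8 genes, all but DTX1. Each sequence is the 250 bases before the start, read 5′ to 3′ on the gene's strand: chr3:194135898-194136147 (plus) for HES1, chr1:1000098-1000347 (minus) for HES4, chr9:136546049-136546298 (minus) for NOTCH1 and chr15:98648289-98648538 (plus) for IGF1R. Capitals mark matches to the motifs searched on both strands, which were the RBPJ letters TGGGAA and GTGNGAA, the RUNX letters TGTGGT and TGCGGT, and the ETS letters CCGGAA.
HES1: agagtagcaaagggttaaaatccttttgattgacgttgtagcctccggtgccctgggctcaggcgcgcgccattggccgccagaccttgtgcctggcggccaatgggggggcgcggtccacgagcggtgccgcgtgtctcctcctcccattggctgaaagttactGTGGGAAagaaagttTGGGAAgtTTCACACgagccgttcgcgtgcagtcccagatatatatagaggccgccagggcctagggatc
HES4: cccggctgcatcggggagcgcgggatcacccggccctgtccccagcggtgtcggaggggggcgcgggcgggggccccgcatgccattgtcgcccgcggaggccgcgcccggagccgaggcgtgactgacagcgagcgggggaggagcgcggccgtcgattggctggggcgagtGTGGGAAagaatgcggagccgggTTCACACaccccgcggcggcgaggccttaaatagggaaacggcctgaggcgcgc
NOTCH1: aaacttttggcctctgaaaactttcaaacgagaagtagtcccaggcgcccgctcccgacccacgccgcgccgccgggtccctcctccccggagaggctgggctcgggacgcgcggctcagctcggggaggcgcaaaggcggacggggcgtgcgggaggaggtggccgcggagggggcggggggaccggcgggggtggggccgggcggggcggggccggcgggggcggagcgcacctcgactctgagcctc
IGF1R: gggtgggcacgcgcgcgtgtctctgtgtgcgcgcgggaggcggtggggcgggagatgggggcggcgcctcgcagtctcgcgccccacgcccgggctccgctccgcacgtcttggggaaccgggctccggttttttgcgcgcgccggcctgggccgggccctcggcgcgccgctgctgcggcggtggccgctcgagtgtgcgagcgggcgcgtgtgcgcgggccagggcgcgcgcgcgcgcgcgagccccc

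In HES1, GTGNGAA matched at -85 to -79 on the gene's strand and at -62 to -56 on the opposite strand, counting back from -1, the base before the start. In HES4 the corresponding matches lay at -77 to -71 and at -54 to -48. The matches faced each other with 16 bases between them in both genes. HES1 held a further TGGGAA at -70 to -65, and the first match of each gene also contains TGGGAA. Of the 35116 promoters in the table, 28 (0.0797%) held GTGNGAA facing its reverse complement with 5 to 30 bases between them, 11.6% held GTGNGAA on either strand and 20.8% held TGGGAA. The form GTGNGAA and the inclusion of HES4, NRARP and PTCRA were chosen after values were seen. None of the other 5 promoters (NOTCH1, NOTCH3, NRARP, PTCRA and IGF1R) held either RBPJ form. The RUNX letters TGTGGT (10.98% of all promoters) and TGCGGT (5.84%) and the ETS letters CCGGAA (14.5%) were in none of the 7. A match describes letters in this stretch and is not a bound site.

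H3K27ac peaks covered less length in ACBI than in DMSO in 8 of 8 windows, where 94.8% of all 50 kb tiles of the genome with at least 5 kb of DMSO H3K27ac also had less. In sum the windows went from 282939 bp in DMSO to 155586 bp in ACBI, a ratio of 0.550, beside 0.556 for the whole lists. The 8 windows as a set thus lost covered length at about the rate of the genome, and the genes differed widely among themselves. The DMSO lists covered 67.8% of the NOTCH1 window and 64.4% of the DTX1 window, more than in 95.2% and 94.4% of the tiles. They covered 33.5% of the NOTCH3 window, 28.9% of IGF1R, 19.99% of PTCRA, 6.29% of HES1, 6.11% of HES4 and 2.12% of NRARP, where the median tile had 21.2%. ACBI over DMSO was highest at HES4 (0.801) and DTX1 (0.765), followed by NOTCH1 (0.604) and PTCRA (0.568). It was lowest at NRARP (0, no ACBI peak), HES1 (0.399), IGF1R (0.429) and NOTCH3 (0.436), and these 4 of 8 windows lay under 0.5, as did 48.2% of the tiles. The median tile had 0.511 (quartiles 0.338 and 0.699, 7451 tiles), and 5 of the 8 windows lay between these quartiles, with HES4 and DTX1 above and NRARP below. The windows differ in length from the tiles, and HES1, HES4 and NRARP had less DMSO H3K27ac than the 5 kb a tile needed. With 1 library per condition, the order of the genes cannot be told apart from library differences. It also depends on the flanks: with 50 kb, HES4 was 0.336 and HES1 0.357.

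**Figure D1:**
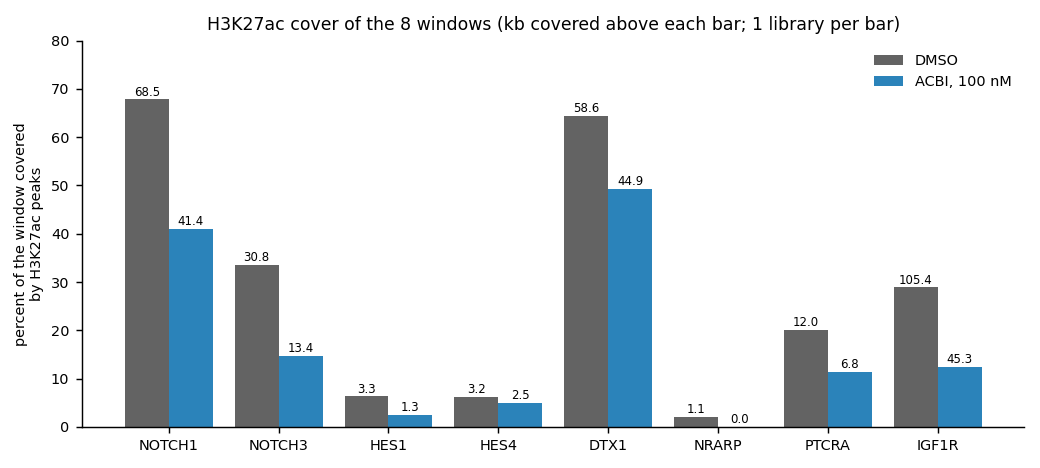
Percent of each gene window (gene plus 25 kb each side) covered by H3K27ac peaks in the DMSO and ACBI libraries, 1 library per bar with no error bar, and the covered kb above each bar. All 8 windows have the lower bar in ACBI, and NOTCH1 and DTX1 have the highest cover in both.

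**Figure D2:**
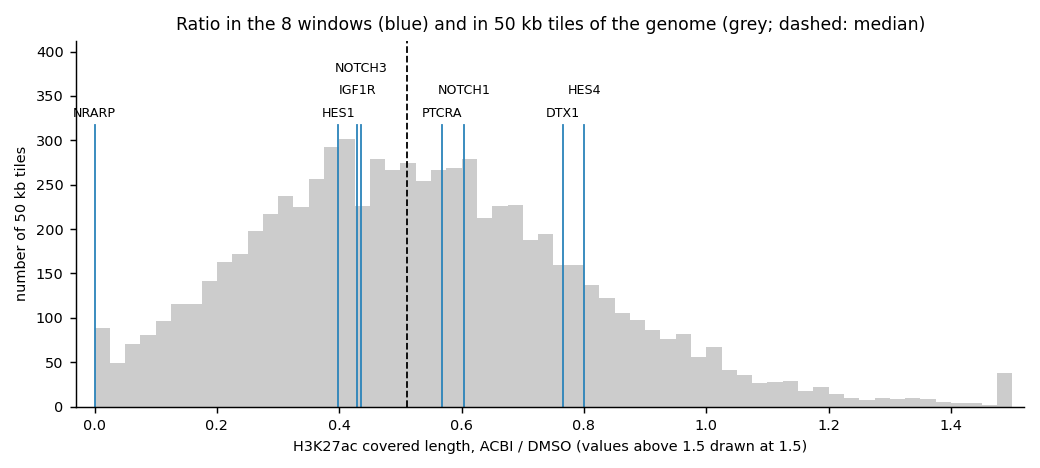
Covered H3K27ac length in ACBI divided by that in DMSO, as a histogram over 7451 tiles of 50 kb (grey; dashed line at the median of 0.511) and as a blue line for each gene window. NRARP sits at 0 and the other genes lie between 0.399 and 0.801, inside the body of the histogram.

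NOTCH1, the receptor gene itself (chromosome 9, 139389 to 139440 kb, minus strand), had the highest share of its window under DMSO H3K27ac and H3K4me3 among the 8. An H3K4me3 peak of 4695 bp (139437148 to 139441842) covered its start and ranked 128 by width among all 12834 H3K4me3 peaks. BRG1 peaks of 266 bp (139440232 to 139440497) and 208 bp (139440616 to 139440823) lay within 1 kb upstream of the rounded start. Both overlapped RUNX1 peaks, of 215 bp and 654 bp, and both were covered over their whole length by H3K27ac in DMSO and in ACBI. RUNX1 had 14 peaks in this window, 7 of them inside the gene, and the widest (1722 bp, 139390401 to 139392122, rank 178 of 19893) lay near the 3′ end, 48.7 kb from the start. DMSO H3K27ac covered 507 bp of that peak and ACBI H3K27ac none.

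DMSO H3K27ac formed 2 broad peaks over the first part of NOTCH1, of 17903 bp across the start (139434086 to 139451988) and 20672 bp inside the gene (139412767 to 139433438). In ACBI these were still largely covered, over 14354 bp and 16868 bp, by 2 and 4 peaks, the widest of 12971 bp (139416830 to 139429800). An ACBI peak of 7545 bp (139430899 to 139438443) is counted for both and spanned the gap between them. Inside the gene covered length went from 41405 bp to 28916 bp (ratio 0.698), and in the flanks from 27116 bp to 12455 bp (0.459). Further toward the 3′ end a peak of 7825 bp (139403231 to 139411055) was covered over 2261 bp. An upstream peak of 9718 bp that runs out of the window (139464414 to 139474131) was covered over 557 bp. In the downstream flank, toward SEC16A by RefSeq gene order, an H3K4me3 peak of 1470 bp (139376159 to 139377628) and a BRG1 peak of 314 bp (139378012 to 139378325) partly overlapped DMSO peaks that had no ACBI counterpart. The latter overlapped a RUNX1 peak of 192 bp. The widest lost peak there measured 1695 bp (139368344 to 139370038), and the widest of the 2 gained peaks 928 bp (139364554 to 139365481).

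NOTCH3, a second receptor of the family (chromosome 19, 15270 to 15312 kb, minus strand), had no BRG1 peak in its window; the nearest was 75.2 kb from its start. An H3K4me3 peak of 1941 bp (15309929 to 15311869) lay at the start, beside a small one of 171 bp. The 1 RUNX1 peak, of 1167 bp (15307999 to 15309165, rank 821), lay 2.8 kb inside the gene. A DMSO H3K27ac peak of 5305 bp (15307465 to 15312769) held both, and its ACBI counterpart was as wide, at 5330 bp (15307066 to 15312395). Away from the start the mark thinned: covered length in the gene fell from 24679 bp with DMSO to 12304 bp with ACBI, and a 4676 bp peak (15298996 to 15303671) was covered over 1488 bp by 3 ACBI peaks. An upstream peak of 3330 bp (15320025 to 15323354) was the widest lost peak of the window, with no RUNX1 or BRG1 peak in it. NOTCH3 thus kept its start and lost length in its body and flanks.

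HES1, a basic helix-loop-helix repressor and a textbook NOTCH target (chromosome 3, 193854 to 193856 kb, plus strand), had much RUNX1 and little H3K27ac. Its 6 RUNX1 peaks covered 5897 bp, 11.3% of the window, which is the highest share of RUNX1 among the 8 windows. A RUNX1 peak of 1954 bp upstream (193851421 to 193853374) ranked 93 and a peak of 1806 bp downstream (193858310 to 193860115) ranked 134 among the 19893 RUNX1 peaks. The only BRG1 peak, of 340 bp (193852735 to 193853074), lay wholly inside the upstream RUNX1 peak, 926 bp from the start, and neither H3K27ac list covered it. H3K4me3 covered the start over 2651 bp (193853736 to 193856386), as did a RUNX1 peak of 546 bp (193853551 to 193854096). DMSO H3K27ac had 3 peaks, of 1319 bp in the gene (193854685 to 193856003), 467 bp just after it and 1485 bp further downstream (193858371 to 193859855). In ACBI only the last was present, at 1304 bp (193858549 to 193859852), so the gene itself went from 1316 bp to 0 bp. The peak that was kept is the one that lies in the 1806 bp RUNX1 peak and off H3K4me3.

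HES4, a related repressor (chromosome 1, 934 to 936 kb, minus strand), had no peak of any list on the gene despite the motif pair shared with HES1. The nearest peaks lay 12.1 to 12.7 kb upstream, toward ISG15 by RefSeq gene order. There an H3K4me3 peak of 1895 bp (948244 to 950138), a BRG1 peak of 160 bp (948700 to 948859) and a RUNX1 peak of 355 bp (948732 to 949086) shared an H3K27ac peak of 2843 bp in DMSO (948122 to 950964) and 2545 bp in ACBI (948120 to 950664). The ratio of the HES4 window therefore describes this neighbouring element; with flanks of 50 kb it was 0.336. Of the other RUNX1 peaks, 1 of 500 bp held the window's only other DMSO peak, a lost one of 336 bp (954761 to 955096), and 2 lay downstream outside H3K27ac.

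DTX1, which encodes an E3 ubiquitin ligase that acts on NOTCH signalling (chromosome 12, 113495 to 113536 kb, plus strand), had the widest marks of the set and no BRG1 peak. Its H3K4me3 peak of 6222 bp (113493210 to 113499431) ranked 34 among 12834. A single DMSO H3K27ac peak of 48531 bp (113491979 to 113540509), rank 17 of 90495, covered the whole gene. In ACBI 42094 bp of it were covered by 4 peaks, of 10483, 10026, 16177 and 5408 bp. Gene cover went from 41000 bp to 37710 bp, a ratio of 0.920, and flank cover from 17627 bp to 7151 bp (0.406). The 3 RUNX1 peaks inside the gene lay 29.7 to 32.4 kb from the start, the widest of 1377 bp (113523973 to 113525349), and another of 175 bp lay beyond the gene. All 4 were fully covered by H3K27ac in both conditions, the 3 inside the gene by the ACBI peak of 16177 bp (113514703 to 113530879). The 4 lost peaks all lay in the flanks, the widest at 1778 bp (113552038 to 113553815), and the nearest BRG1 peak was 163.9 kb away.

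NRARP, a small ankyrin-repeat protein that restrains NOTCH signalling (chromosome 9, 140194 to 140197 kb, minus strand), had no H3K4me3, BRG1, RUNX1 or ACBI H3K27ac peak in its window. The only signal was 2 DMSO H3K27ac peaks of 767 bp (140168429 to 140169195) and 927 bp (140170182 to 140171108) at the downstream edge, and both were lost. With flanks of 50 kb the NRARP ratio was 0.304. The nearest H3K4me3 peak was 46.0 kb from the start. The promoters of NRARP and HES4 had 78.4% and 74.8% G and C, beside 76.0% for NOTCH1, 78.0% for NOTCH3 and 81.2% for IGF1R, which had H3K4me3 at or beside the start. HES1 had 59.2% and PTCRA 64.4%, and the median of all promoters was 58.0%. Any part of G and C content in the presence of peaks was not tested.

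PTCRA, the pre-T-cell receptor alpha chain of immature T cells (chromosome 6, 42884 to 42894 kb, plus strand), also had no peak of any list on the gene. All its peaks were in the flanks. The main one lay 12.1 kb downstream of the start, toward CNPY3 by RefSeq gene order, where H3K4me3 (2506 bp, 42896494 to 42898999), RUNX1 (1317 bp, 42896630 to 42897946) and BRG1 (533 bp, 42896902 to 42897434) were nested. That BRG1 peak was the widest of the 10 and ranked 550 of 7445. H3K27ac there was 4863 bp wide in DMSO (42896087 to 42900949) and 3177 bp in ACBI (42895756 to 42898932), and both covered the BRG1 and RUNX1 peaks fully. The adjacent DMSO peak of 2216 bp (42901726 to 42903941) was lost.

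**Figure D3:**
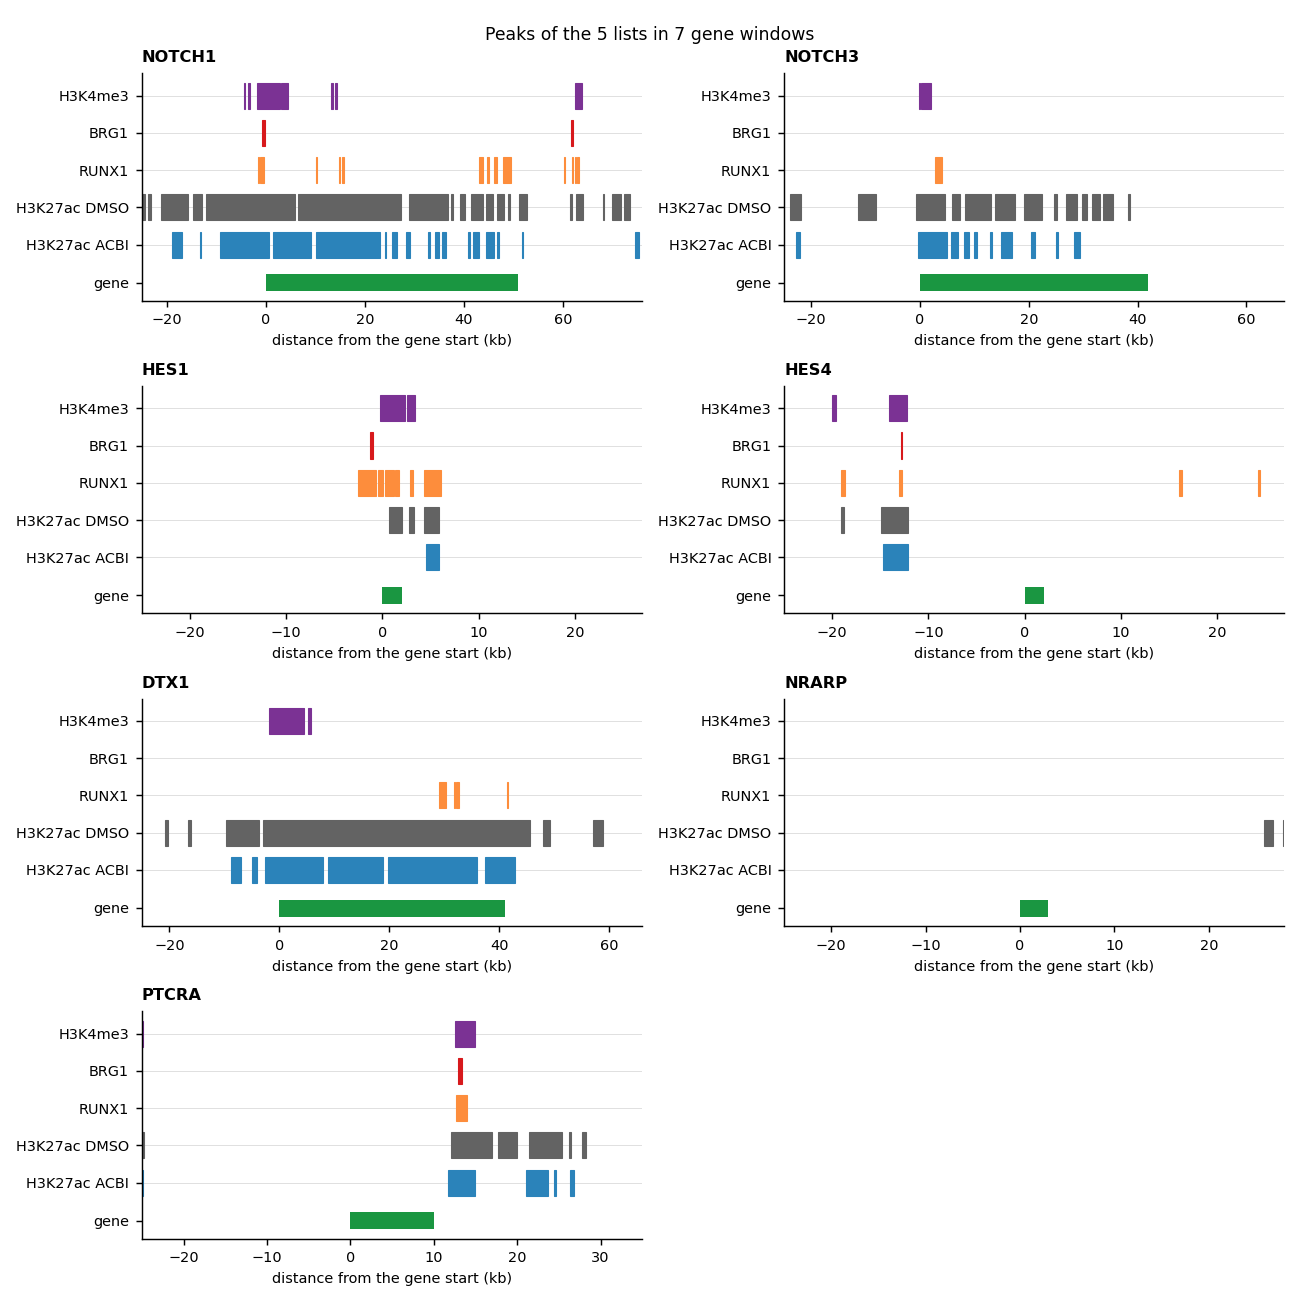
Peaks of H3K4me3, BRG1, RUNX1 and H3K27ac in DMSO and ACBI (coloured blocks, to scale) in 7 gene windows, against the distance from the gene start in kb, with the gene in green. The 48531 bp DMSO block over DTX1 is 4 blocks in ACBI, HES1 keeps 1 of 3 H3K27ac blocks, and HES4, NRARP and PTCRA have no block on the gene.

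IGF1R, the type 1 insulin-like growth factor receptor (chromosome 15, 99193 to 99508 kb, plus strand), is the longest gene of the set and held 71 of the 122 DMSO H3K27ac peaks. At its start, H3K4me3 covered 2718 bp (99191548 to 99194265) and 859 bp (99190471 to 99191329). BRG1 had 3 peaks there, of 498 bp (99190789 to 99191286), 409 bp (99191543 to 99191951) and 364 bp (99192295 to 99192658), more than at any other of the 8 starts. RUNX1 overlapped the first and the second, not the last. All 3 lay fully in a DMSO H3K27ac peak of 1979 bp (99190680 to 99192658), but the ACBI peak there was 582 bp wide (99190554 to 99191135). It covered 347 bp of the first BRG1 peak and none of the other 2.

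Across IGF1R and its downstream flank the covered length that remained differed with position. From the start to 100 kb, H3K27ac covered 19715 bp in DMSO and 2097 bp in ACBI (ratio 0.106), and 18 of 20 DMSO peaks were lost. From 100 to 200 kb the lengths were 12094 bp and 4494 bp (0.372), with 18 of 21 peaks lost. From 200 to 300 kb they were 55897 bp and 27767 bp (0.497), with 10 of 23 peaks lost, and from 300 kb to the end of the window, at 340 kb, 15742 bp and 10331 bp (0.656), with 4 of 6 lost. All DMSO peaks of like width were lost in 59.6%, 76.5%, 42.5% and 63.1% of cases for the 4 segments in turn, so the lost share stood furthest above that of like width in the first segment. The peaks of the first 100 kb had a median width of 868 bp, those from 100 to 200 kb 436 bp. These segments were chosen after the values were seen. The last one runs past the gene end at 315 kb, and its border at 300 kb cuts the widest DMSO peak. The widest DMSO peak, of 19836 bp at the 3′ end (99486148 to 99505983), was covered over 16290 bp by 3 ACBI peaks, the widest of 15399 bp (99487570 to 99502968). It held an H3K4me3 peak of 1847 bp (99495870 to 99497716) and a RUNX1 peak of 726 bp (99495775 to 99496500). A peak of 10084 bp (99459150 to 99469233), with no BRG1 or RUNX1 peak, was covered over 5521 bp by 4 ACBI peaks. The 1 BRG1 peak inside any of the 8 genes as bounded here, of 218 bp (99395460 to 99395677), lay 202.6 kb from the IGF1R start. It sat in a RUNX1 peak of 724 bp and an H3K4me3 peak of 810 bp, and H3K27ac there measured 2988 bp with DMSO and 3088 bp with ACBI. The 2 RUNX1 peaks at 127.3 and 151.8 kb were also fully covered by H3K27ac in both conditions. The widest lost peak of the window measured 2211 bp (99240705 to 99242915) and the widest of its 3 gained peaks 693 bp (99277819 to 99278511).

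**Figure D4:**
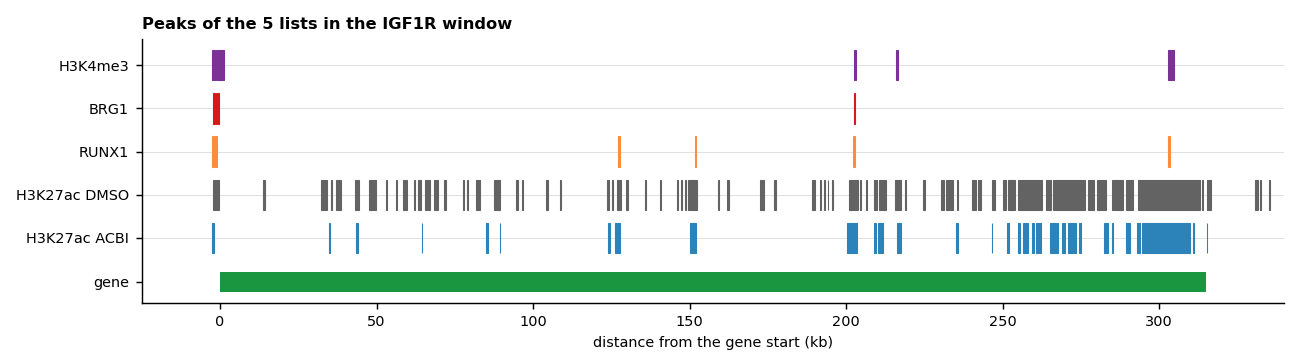
Peaks of the 5 lists across IGF1R and 25 kb each side, against the distance from its start in kb, with blocks to scale and the gene in green. DMSO H3K27ac blocks are spread over the gene, whereas ACBI blocks are sparse in the first 100 kb (2097 bp against 19715 bp) and dense toward the 3′ end.

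Across the windows most BRG1 peaks overlapped a RUNX1 peak, as they did over the whole list. Of the 10 BRG1 peaks, 9 overlapped RUNX1 (90.0%, exact Clopper-Pearson 95% interval 55.5 to 99.7), beside 80.7% of all BRG1 peaks. The exception was the 364 bp peak at the IGF1R start. The BRG1 peaks were in 5 of 8 windows, 8 of 10 on H3K4me3 (61.8% of all BRG1 peaks), and 9 of 10 outside the genes as bounded here, which counts the peaks just upstream of a rounded start. Of the 36 RUNX1 peaks, 9 overlapped BRG1 (interval 12.1 to 42.2%, beside 29.8% of all RUNX1 peaks) and 15 lay on H3K4me3 (41.7%, beside 43.0%). Of the RUNX1 peaks, 18 of 36 lay inside a gene. The whole-list shares for overlap with RUNX1, BRG1 and H3K4me3 lay within the intervals of the windows, which cover counting error only.

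Most factor sites carried H3K27ac in DMSO, and most of those still did in ACBI. In DMSO H3K27ac lay 9 of 10 BRG1 peaks (91.9% of all BRG1 peaks) and 30 of 36 RUNX1 peaks (83.8% of all). In ACBI, 6 of these 9 BRG1 peaks (66.7%, 29.9 to 92.5, beside 76.3% over all) and 22 of these 30 RUNX1 peaks (73.3%, 54.1 to 87.7, beside 76.1%) overlapped H3K27ac. The 3 BRG1 peaks that did not were the 409 bp and 364 bp peaks at the IGF1R start and the 314 bp peak downstream of NOTCH1. Of the 8 RUNX1 peaks that did not, 3 were at HES1, 3 at NOTCH1, 1 at HES4 and 1 at IGF1R. An overlap needed only 1 bp. NOTCH1 RUNX1 peaks of 827 bp and 598 bp had 782 bp and 137 bp of H3K27ac in DMSO, but 24 bp and 34 bp in ACBI. With 50% of a RUNX1 peak required to be covered, 20 of 27 on DMSO H3K27ac were still on ACBI H3K27ac (74.1%). Of the 22 H3K4me3 peaks, 21 lay in DMSO H3K27ac (92.8% of all), and 17 of these 21 (81.0%, 58.1 to 94.6, beside 84.0%) overlapped H3K27ac in ACBI. The 4 that did not were both H3K4me3 peaks of HES1, the one over the IGF1R start and the one downstream of NOTCH1.

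A DMSO peak is called lost when no ACBI peak overlaps it. Of the 122 DMSO peaks, 75 were lost (61.5%, 52.2 to 70.1), beside 59.1% of all DMSO peaks. Narrow peaks are lost more often throughout the lists, and the members were wider than most, with a median of 1145 bp against 741 bp. All DMSO peaks were put in 10 bins of width, and each member was given the lost share of its bin. The mean of these shares, called the share at like width, was 50.8% over the members. IGF1R set much of this count: 50 of its 71 peaks were lost (70.4%, 58.4 to 80.7), beside 58.8% at like width. Without it 25 of 51 were lost (49.0%, 34.8 to 63.4), beside 39.8% at like width. By gene, with the share at like width in brackets, 9 of 19 were lost at NOTCH1 (40.6%), 5 of 13 at NOTCH3 (31.3%) and 2 of 3 at HES1 (55.8%). The counts were 1 of 2 at HES4 (50.5%), 4 of 6 at DTX1 (41.8%), 2 of 2 at NRARP (65.4%) and 2 of 6 at PTCRA (33.6%). Each bracketed share lay within the counting interval of its gene, which is wide where a gene had few peaks. For the 122 peaks together, the 50.8% at like width lay just below the interval of 52.2 to 70.1. Without IGF1R, the 39.8% lay inside 34.8 to 63.4. These intervals cover counting error only. The median width was 613 bp among lost and 2276 bp among kept peaks.

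Peaks that held RUNX1, BRG1 or H3K4me3 were lost at a lower share than those without. Of the 21 DMSO peaks with RUNX1, 6 were lost (28.6%, 11.3 to 52.2, beside 20.6% of all such peaks), against 69 of 101 without RUNX1 (68.3%, 58.3 to 77.2, beside 65.6%). With BRG1, 1 of 6 was lost (16.7%, 0.421 to 64.1, beside 14.8% of all such peaks), against 74 of 116 without it (63.8%, 54.4 to 72.5, beside 62.4%). The interval of the 6 peaks with BRG1 includes the share without it. On H3K4me3, 3 of 14 were lost (21.4%, 4.66 to 50.8, beside 14.5%), against 72 of 108 off it (66.7%, 56.9 to 75.4, beside 65.0%). The same order was seen over the whole lists, and the part of peak width in it was not tested.

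Broad DMSO peaks appeared in several pieces in ACBI, though ACBI peaks also joined neighbouring DMSO peaks. The ACBI peaks of 7545 bp at NOTCH1 and of 2466 bp at IGF1R (99458139 to 99460604) each overlapped 2 DMSO peaks. The 5 DMSO peaks of 10 kb or more (2 at NOTCH1, 1 at DTX1 and 2 at IGF1R) were each overlapped by several ACBI peaks, as were 77.5% of the 970 such peaks in the genome, and ACBI covered 81.3% of their length, beside 79.2%. Over all widths 11 of 122 DMSO peaks were split in this way (9.02%, 4.59 to 15.6), beside 5.64% of all. In the 35 cases of exactly 1 DMSO and 1 ACBI peak, the ACBI peak was narrower in 28 (beside 74.5% of such pairs in the genome), with medians of 1979 and 750 bp. Of the 71 ACBI peaks, 5 were gained, meaning without a DMSO peak (7.04%, 2.33 to 15.7, beside 21.4% of all ACBI peaks). They measured 166 to 928 bp, lay in the NOTCH1 and IGF1R windows, and held no H3K4me3, BRG1 or RUNX1 peak. A gained peak can only lie outside DMSO peaks, which covered 32.7% of the windows. A gained share at like DMSO cover was not computed, so whether the lower share is particular to these genes was not tested.

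**Figure D5:**
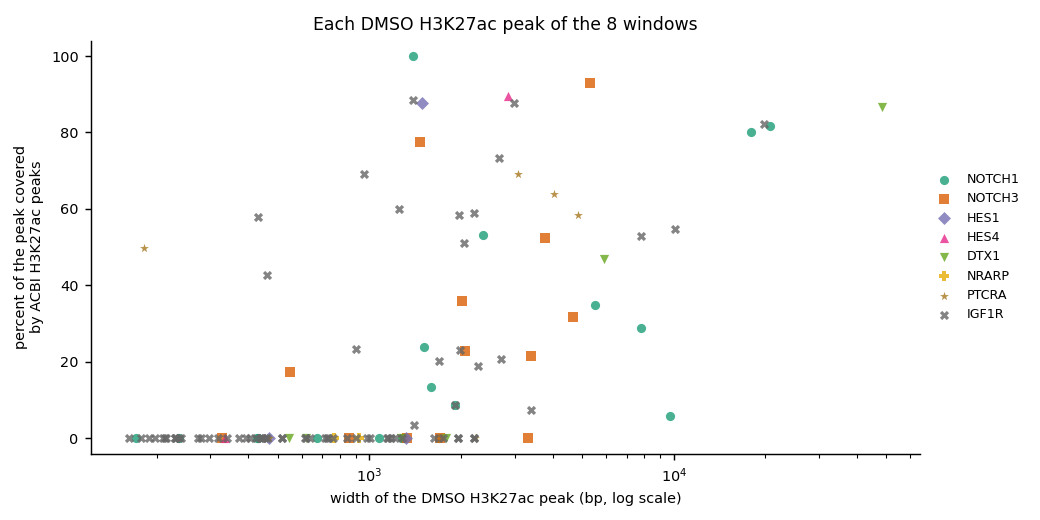
Each of the 122 DMSO H3K27ac peaks of the 8 windows as a point, with its width in bp on a log axis and the percent of its length covered by ACBI peaks, with a symbol for each gene. The 75 lost peaks lie at 0, mostly at small widths, and the 48531 bp DTX1 peak lies at the far right.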

How the data were processed

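The deposited files are lists of peak positions for H3K4me3, BRG1, RUNX1 and H3K27ac in DMSO and ACBI, with 1 library per group. The authors deposited chromosome, start, end and name of each peak, with no score or count, so depth is unknown. The submitters' processing notes name hg19, MACS2 and SEACR. RUNX1 peaks came from MACS2, per the file headers, and both H3K27ac lists are broad peaks from cutruntools at q below 0.01. The 4 control samples (IgG as antibody in the labels, 1 of them titled as an input for RUNX1) were not analysed here. Other settings were not given in the sources used here. Peak number and width also depend on sequencing depth and background, whose part in the ACBI values was not tested.

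Gene windows followed fixed hg19 coordinates in kb; without an hg19 annotation, other NOTCH pathway genes and cell type markers were not counted. All 8 genes and, in each window, the BRG1 peaks with RUNX1, the peaks nearest to the start and the widest, lost and gained H3K27ac peaks are named; others named were chosen after values were seen. The members, lists and alternatives were chosen with earlier results of these data known. Strand came from RefSeq, except DTX1 from general knowledge. Overlaps used Python 3.11.15 (pandas 2.3.3, numpy 2.4.6, scipy 1.17.1), were tested on simulated lists and checked against bedtools 2.31.1 (0 peaks differed), and plotted with matplotlib 3.10.9. Intervals are exact Clopper-Pearson 95% intervals over peaks and cover counting error only.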

Additional observations from a re-analysis of the deposited data

How the results depend on the processing

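No paired analysis was possible because each condition has 1 library and no result comes from a test. The alternatives were flanks of 0, 10 and 50 kb, 50% of a peak covered, a peak within 1 kb counted as shared, H3K27ac peaks of at least 500 bp, equal numbers of the widest H3K27ac peaks, H3K27ac peaks merged below 1 kb, whole peak lengths and, added after seeing the data, IGF1R left out. The summed ratio of H3K27ac length stayed between 0.522 (flanks of 50 kb) and 0.621 (without IGF1R), within 1.5 times of 0.550. By gene every ratio stayed below 1 under the alternatives that gave one, and 3 moved by over 1.5 times: HES1 was 0 without flanks, and with flanks of 50 kb HES4 was 0.336 and NRARP 0.304. HES4, NRARP and PTCRA gave no ratio without flanks, nor HES4 and NRARP with 10 kb. Lost shares by gene also moved out of their intervals. With 50% covered they were 83.1% at IGF1R, 78.9% at NOTCH1 and 76.9% at NOTCH3. With equal numbers of widest peaks, IGF1R was 53.7%. Without flanks, 0 of 1 was lost at DTX1 and 1 of 1 at HES1. At HES4 0 of 1 was lost with peaks of at least 500 bp and with equal numbers.

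Of 56 values of the summed results, 44 stayed within the interval of the reported value (or 1.5 times for the ratio) and 12 moved out of it. With 50% covered, 79.5% of DMSO peaks were lost, 19.7% of ACBI peaks gained and 8.33% of RUNX1 peaks on BRG1. With peaks within 1 kb counted as shared, 1.41% of ACBI peaks were gained. When both lists were limited to equal numbers of widest peaks, the lost share was 46.9%. Without IGF1R, 49.0% were lost and 100% of 6 BRG1 peaks were on RUNX1. Without flanks, 5.56% of RUNX1 peaks were on BRG1, 94.4% were in DMSO H3K27ac, and the 1 BRG1 peak left gave 100% on RUNX1, on DMSO H3K27ac and still on ACBI H3K27ac. Depth is unknown, and its part in these values was not tested. Shares over all peaks were not computed under the alternatives, so it cannot be told whether the windows moved apart from the whole lists.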
